A study of Homo sapiens with 33 samples.

Results

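Target-AID is a cytosine base editor: a Cas9 nickase (nCas9) joined to a cytidine deaminase, which the series uses as its control for C-to-T editing of DNA and C-to-U editing of RNA. The gene counts of HEK293T cells that received Target-AID with a guide to HEKsite2 were compared here with those of cells that received GFP alone. The comparison takes 6 of the 33 libraries, chosen by construct and guide: 3 of Target-AID with the HEKsite2 guide and 3 of GFP, the labels of which give no guide. HEK293T is a human embryonic kidney line. Every editor plasmid also encoded GFP, split from the editor by a P2A peptide, and GFP-positive cells of all groups, controls included, were collected 36 to 40 h after the plasmids were given. The editor, the nickase, the guide and the plasmid therefore differ together between Target-AID and GFP, and their parts in any difference cannot be told apart in this pair of groups. For that reason 3 other groups of 3 libraries are set beside it: nCas9 with the HEKsite2 guide, Target-AID with a guide to RNF2, and SpACE, the dual adenine and cytosine editor of the series, with the HEKsite2 guide. All are transient transfections of the same line. The SpACE libraries carry UGI (uracil glycosylase inhibitor) in their names in the count data, which the labels do not mention. Whether Target-AID also carries UGI is not stated, and its part in any difference from nCas9 or SpACE was not tested. The labels do not say whether the numbered replicates are separate cultures, so p-values measure the spread between these libraries, which may be technical.

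In a cytosine base editor the guide RNA brings the deaminase to a DNA site, where it turns cytosine into uracil that is read as thymine, and the deaminase can also act on RNA. Uracil in DNA is removed by uracil glycosylases and handled by base excision and mismatch repair. Cells that carry unfolded protein switch on heat shock genes through HSF1, and cells with a block in translation raise genes downstream of ATF4, the integrated stress response. Immediate early genes such as FOS and DUSP1 are switched on within minutes of growth factor or stress signals, without new protein synthesis.

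Total counts ran from 8178018 to 9913306 in the Target-AID libraries and from 9681156 to 11200406 in the GFP libraries, and all 33 libraries lay between 6790209 and 11200406. Each Target-AID library had counts for 18676 to 19131 genes and each GFP library for 18239 to 18558. In a principal component analysis of all 33 libraries the first component (39.3% of the variance) set the 6 Target-AID libraries of both guides apart from all others, and GFP was highest on the second (13.4%). Within Target-AID with HEKsite2, replicate 3 was further from the others (chi-square per degree of freedom 9.92 and 13.5) than replicates 1 and 2 were from each other (4.05). Without that library the comparison with GFP called 6311 genes in place of 6780. HEK293 line markers (VIM, CDH2, KRT8, KRT18, NEFL, NEFM, INA, PAX2, LIN28B) all had counts in both groups, with a summed level of 694 to 742 CPM in Target-AID and 913 to 986 in GFP. CPM are counts per 1000000 of the TMM-scaled library, given in the order of replicates 1, 2 and 3, and a value after ± is a standard error of a log2 fold change from n = 3 libraries per group unless SD is named.

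Differences between Target-AID and GFP were many and mostly small. Of 14613 genes tested, 6780 were called at an adjusted p under 0.05 (46.4%), 3596 higher in Target-AID (24.6%) and 3184 lower (21.8%), by edgeR's quasi-likelihood test with Benjamini-Hochberg adjustment. The median called gene differed 1.34-fold, and 4697 called genes (69.3%) differed by under 1.5-fold. Large differences lay on the higher side: 651 genes were at least 2-fold higher (4.45%) and 101 at least 2-fold lower (0.691%), and 237 were at least 4-fold higher against 7 at least 4-fold lower. The median log2 fold change over all genes was 0.02. Scaled by library totals alone, without TMM, it was 0.12 and the split was 4840 higher to 2124 lower, so 69.5% of calls were higher in place of 53%; small differences below are relative to the TMM scale. In 4200 genes all 3 Target-AID libraries lay above all 3 GFP libraries (28.7%), and in 3719 all 3 lay below (25.4%).

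**Figure D1:**
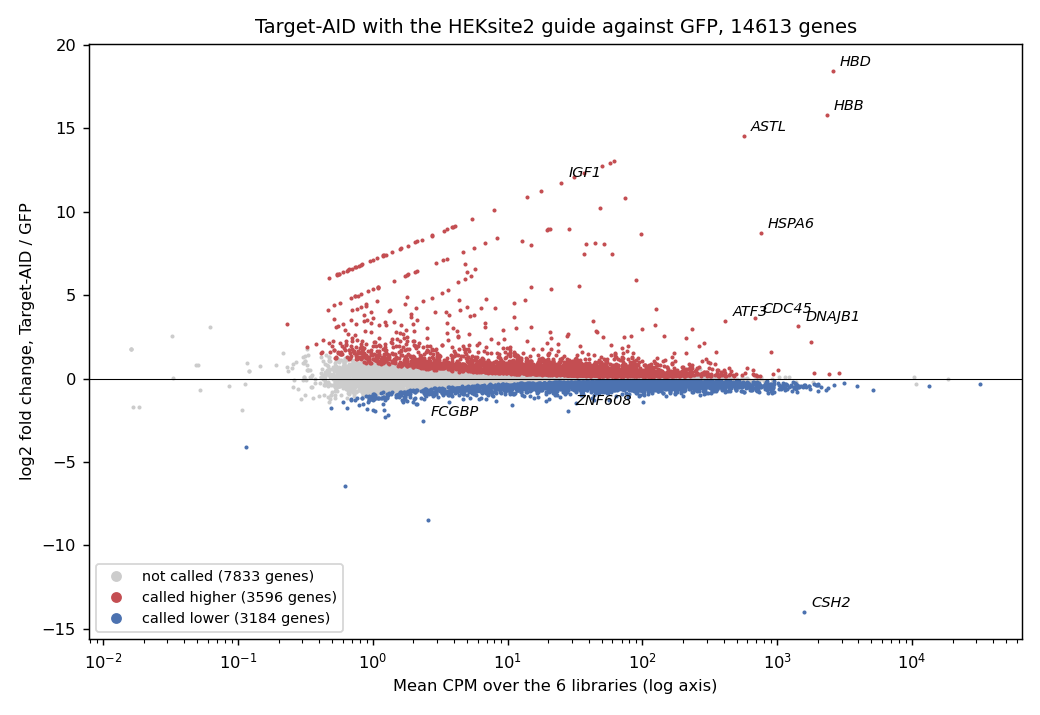
Each point is 1 of the 14613 genes tested, with its mean level over the 6 libraries (CPM, log axis) against its log2 fold change, Target-AID with the HEKsite2 guide over GFP. Red points were called higher (3596) and blue points lower (3184); the straight rows of red points at the top are genes with 0 or few counts in GFP, the fitted fold change of which is set by the fit's small added count and is no bound.

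The largest rises were genes with next to no counts in GFP, in nCas9 or in SpACE. HBD and HBB, the adult delta and beta globin genes, lie side by side on chromosome 11 (chr11:5232678-5243657 and chr11:5225464-5229395, GRCh38, GENCODE 29). HBD was at 5714, 4814 and 4974 CPM in Target-AID and had 0 counts in the 3 GFP libraries, which makes it at least 51233-fold higher against a floor of 3 counts over the GFP group. HBB was at 5019, 4218 and 4687 CPM in Target-AID, with 130144 counts against 2 in GFP, a ratio of 68805 (95% exact counting interval 19047 to 568150). These genes are close copies of each other and reads may be shared between them. With the RNF2 guide HBD stood at 5712, 4557 and 3792 CPM. Erythroid markers did not move with the globin pair: summed over the list of 10, which includes HBA1, HBA2, HBG1, HBG2, ALAS2, SLC4A1, EPB42, AHSP and KLF1, they made 0.388 to 0.823 CPM in Target-AID and 0.282 to 0.697 in GFP, and HBG1, HBG2 and AHSP were at 0 counts in Target-AID. The plasmids differ between the groups, and in a table of gene symbols reads from a plasmid cannot be told apart from those of the cell's own genes.

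Below the globin pair stood a mixed set of tissue-restricted genes. ASTL, the egg-specific protease ovastacin (chr2:96123850-96138436), was at 1312, 1007 and 1072 CPM in Target-AID and had 1 count in GFP, a ratio of 33626 (interval 6035 to 1328200; without GFP replicate 1 the GFP count was 0). CRYBA4, a lens crystallin, was at least 1221-fold higher (112, 131 and 127 CPM against 0 counts), TNS4, a tensin of focal adhesions, at least 991-fold (111, 93.8 and 94.9 CPM) and TNNT2, cardiac troponin T, at least 736-fold (89.7, 65.2 and 67.5 CPM). OR2B3, an olfactory receptor, was at 70.1, 58.8 and 59.2 CPM against 0 counts, at least 622-fold higher, but DESeq2 did not call it (adjusted p 0.164). IGF1, the insulin-like growth factor that signals through its receptor tyrosine kinase (chr12:102395874-102481744), was at 53.7, 46 and 50.1 CPM against 0 counts, at least 493-fold higher, and ASB4, of a ubiquitin ligase family, at 29.6, 27.2 and 27.4 CPM, at least 278-fold. In each of these genes the 3 Target-AID libraries lay close together and far from GFP. ADAMTS14, a procollagen peptidase, was uneven: 226, 190.1 and 31 CPM in Target-AID with HEKsite2 and 38.5, 179 and 21 with RNF2, against 2 counts in GFP (ratio 2330, interval 645 to 19245). All intervals cover counting error only.

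These genes belong to a wider set. By a threshold chosen on these data, 69 genes are specific to Target-AID. It asks for 80 counts or more with each of the guides, and 10 or more times any other group of the series. They took 1.36% of the Target-AID counts with HEKsite2 and 0.00263% of the GFP counts. Counts for 47 genes called higher were 0 in all 3 GFP libraries, against 3 genes called lower with 0 in Target-AID. The filter on low counts kept 249 genes only through the Target-AID libraries of both guides. Of the 3596 higher calls 171 are such genes, against 1 lower call. That selection favours higher values, so their direction is no finding of its own. Fitted without the 69 genes, the comparison gave 3512 higher and 3206 lower calls.

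The largest fall was CSH2, which encodes a placental lactogen of the growth hormone cluster on chromosome 17 (chr17:63872012-63873766). It was at 0.206, 0.194 and 0.124 CPM in Target-AID, 5 counts in all, and at 3151, 3275 and 3029 CPM in GFP (-14.00 ± 0.85 on the log2 scale, adjusted p 1.28e-37). It was also high in nCas9 (2454, 2217 and 2414 CPM) and in SpACE (1602, 1306 and 1221 CPM), and low in Target-AID with RNF2 (0.107, 0.317 and 0.107 CPM). The level of CSH2 thus differed with the construct given. As with the globin pair, reads from a plasmid cannot be told apart from those of the cell's own gene. GH1 and GH2, near copies in the same cluster, had 29 and 19 counts in GFP and 0 in Target-AID, too few to test, and CSH1 had 0 counts in every library. Placental markers (CGA, PSG1, PSG3, ERVW-1, KISS1, PAPPA, GCM1, HSD3B1, CYP19A1) summed to 1.55 to 2.35 CPM in GFP and 4.42 to 6.20 in Target-AID. GCM1, the 1 of them high enough to test, rose and carried most of the sum (mean 3.36 CPM against 0.663), CGA and PSG3 had fewer counts in Target-AID (7 against 11, and 0 against 2), and PSG1 and HSD3B1 were at 0 in both groups.

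The other large falls were smaller and several were shared with nCas9. FCGBP, an IgG-binding mucus protein, was at 0.720, 0.679 and 0.620 CPM in Target-AID and 3.69, 4.42 and 4.08 in GFP (-2.56 ± 0.41, adjusted p 1.18e-07). ZNF608, a zinc finger protein, was at 13, 11.2 and 10.8 CPM against 41.6, 47 and 44 (-1.92 ± 0.11, adjusted p 4.85e-19) and nCas9 lay between them at 20.1, 19.5 and 20.5. FLRT3, an adhesion protein of the axon guidance type, fell by 1.49 from 47.7, 46.1 and 48.6 CPM in GFP to 17.3, 15.1 and 18.3, and PRR11, a proline-rich protein with peak levels in late cell cycle, fell by 1.40. ARID5B, a DNA-binding cofactor, fell by 1.29, NDST4, a heparan sulfate sulfotransferase, by 1.52, DHRS2, a dehydrogenase, by 1.51 and LRRIQ3 by 1.43. COL3A1, the type III collagen chain, was at 5.76, 3.98 and 4.34 CPM against 10.6, 9.97 and 14.9 in GFP (-1.32 ± 0.2, adjusted p 3.24e-07), and it did not pass the test against nCas9 (0.02, adjusted p 0.948). The 10 mesenchymal markers, COL3A1 included, summed to 49.4 to 55.1 CPM in Target-AID and 55.6 to 61.9 in GFP. Of the 5 tested, COL3A1 and LUM were lower and 0 higher: mean CPM in Target-AID and GFP were 1.89 and 4.18 for LUM, 7.54 and 7.13 for COL1A1, 29.6 and 25.9 for FBN1, and 7.27 and 8.67 for TWIST1. COL1A2 and POSTN were at 0 counts in Target-AID. The part of such cells in the fall of COL3A1 was not tested.

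Heat shock genes rose as a group in Target-AID. Of 37 tested chaperones and cochaperones 30 were higher than in GFP (81.1%, against 24.6% of all genes) and 3 lower (8.11%, against 21.8%). Their median log2 fold change was 0.50 (0.02 over all genes). HSPA6, the strictly stress-inducible HSP70 (chr1:161524540-161526910), was at 1527, 1571 and 1410.4 CPM in Target-AID and 3.09, 3.67 and 3.97 in GFP. The lowest Target-AID library was far above the highest GFP library, with a log2 fold change of 8.71 ± 0.23 (adjusted p 7.8e-35). DNAJB1, the HSP40 partner that feeds clients to HSP70, was at 2704, 2506 and 2477 CPM against 280.4, 301 and 299 (3.13 ± 0.077, adjusted p 1.41e-29). HSPA1B, the main inducible HSP70, was at 3226, 2951 and 2682 CPM against 631, 631 and 645 (2.22 ± 0.058, adjusted p 4.73e-29). In both genes the lowest Target-AID library was far above the highest GFP library. BAG3, a cochaperone that sends clients to autophagy, rose by 2.58 ± 0.0803 on the same scale. HSPA7, a pseudogene copy of HSPA6, had 1135 counts against 2 (ratio 600, interval 166 to 4961; both GFP counts were in replicate 3). HSPA1A and HSPA1B are near-identical, as are HSPA6 and HSPA7, so the division of reads within each pair is uncertain.

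Apart from CRYAB, the remaining chaperones named here moved less, and not all moved up. CRYAB, a small heat shock protein that was named after its values were seen, was at 10.5, 20.8 and 18.5 CPM in Target-AID and had 1 count in GFP. HSPH1, an HSP110 exchange factor, rose by 1.61, CHORDC1, an HSP90 cochaperone, by 1.19, SERPINH1, the collagen chaperone, by 1.12, and HSPB1 by 0.98. The HSP90 genes HSP90AA1 and HSP90AB1 rose by 0.33 and 0.28. HSPA8, the constitutive HSP70, fell by 0.27 (adjusted p 0.00081), HSPA2 by 0.50 and HSF1, the heat shock transcription factor itself, by 0.18. The call of HSF1 was lost without GFP replicate 1 or 3 and without Target-AID replicate 2 or 3. HSPE1, UBB, HSPA1L and DNAJA4 missed the threshold. The cytosolic chaperonin TRiC and its helper prefoldin, which fold actin and tubulin, gave 1 higher gene of 14 (TCP1, 0.30) and 5 lower, all 5 of them prefoldin subunits, such as PFDN5 (-0.54) and PFDN1 (-0.43). These shares (7.14% and 35.7%) stand against 24.6% and 21.8% of all genes. With library totals alone 4 were higher, and with no filter 8 were lower.

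**Figure D2:**
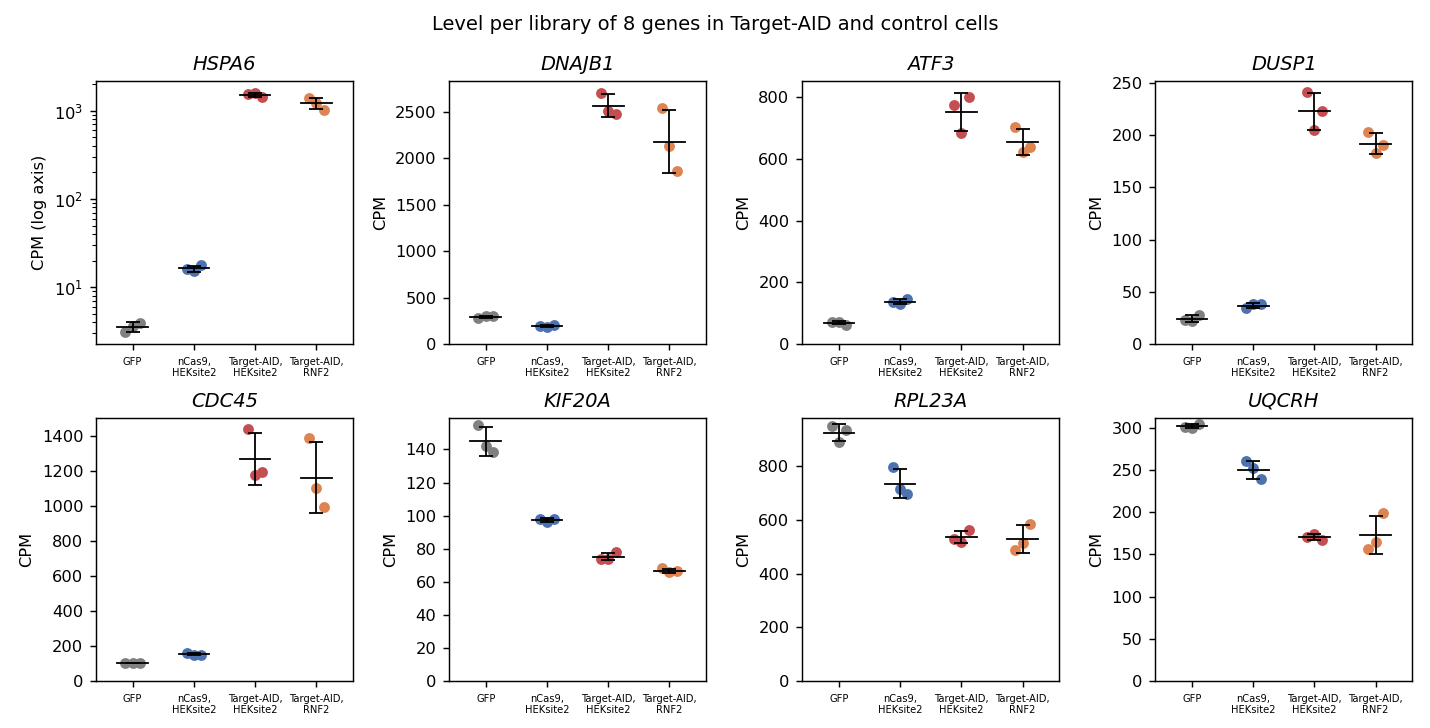
Level per library (CPM; log axis for HSPA6, linear from 0 for the others) of 8 genes in GFP, nCas9 with HEKsite2, and Target-AID with HEKsite2 and with RNF2. Points are libraries, the long bar is the mean and the short bars 1 SD (n = 3). HSPA6, DNAJB1, ATF3, DUSP1 and CDC45 are higher in both Target-AID groups than in both controls, and KIF20A, RPL23A and UQCRH lower, with nCas9 between GFP and Target-AID for the last 3.

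Promoters of the heat shock genes show how the HSF1 site is placed in members that went different ways. HSF1 binds heat shock elements, arrays of inverted nGAAn blocks, searched here as GAANNTTCNNGAA on both strands in the 250 bases before and 50 after each RefSeq start (GRCh38.p14). The motif was in 133 of 27305 promoters (0.487%) and in 6 of 31 matched heat shock members (19.4%). Of these, HSPA6, CHORDC1, DNAJA1, DNAJB6 and SERPINH1 rose (5 of 25 higher members) and HSPA8 fell (1 of 2 lower members). None of the 4 members not called held it. DNAJB1, HSPA1B and BAG3, which rose strongly, are not among the 6 with a match. Shown are, of these 6, the strongest riser, the member with most matches and the constitutive gene that fell. The 250 bases before the start are in lower case, 5′ to 3′ on the gene's strand, with the matches in capitals. HSPA6 (chr1:161524290-161524539, plus strand) has 1 match that begins 74 bases before the start. CHORDC1 (chr11:90223050-90223299, minus strand) has 3 overlapping matches that begin 60, 55 and 50 bases before it. HSPA8 (chr11:123062137-123062386, minus strand) has 2, at 230 and 55 bases before it.
HSPA6: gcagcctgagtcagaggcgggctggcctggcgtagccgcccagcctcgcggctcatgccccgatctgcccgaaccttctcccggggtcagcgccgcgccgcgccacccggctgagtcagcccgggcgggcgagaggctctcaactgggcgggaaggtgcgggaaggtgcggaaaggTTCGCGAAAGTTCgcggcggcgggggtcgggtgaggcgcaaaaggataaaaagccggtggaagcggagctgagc
CHORDC1: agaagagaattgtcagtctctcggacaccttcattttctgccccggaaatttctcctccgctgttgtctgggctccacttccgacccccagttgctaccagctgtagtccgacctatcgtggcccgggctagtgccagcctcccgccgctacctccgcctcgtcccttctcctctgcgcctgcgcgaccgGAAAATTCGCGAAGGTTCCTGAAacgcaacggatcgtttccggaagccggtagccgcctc
HSPA8: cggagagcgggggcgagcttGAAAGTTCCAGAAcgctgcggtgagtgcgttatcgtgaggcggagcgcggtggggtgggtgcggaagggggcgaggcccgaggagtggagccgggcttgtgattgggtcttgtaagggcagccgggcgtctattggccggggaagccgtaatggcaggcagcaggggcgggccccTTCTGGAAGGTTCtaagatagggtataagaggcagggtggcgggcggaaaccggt

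A match to these letters is a description of the window and not evidence of binding. HSPA8, with 2 matches, was at 2884, 2755 and 2832 CPM in Target-AID and 3623, 3307 and 3286 in GFP, and CHORDC1, with 3, at 413, 436 and 385 against 187, 186 and 169.6. The groups did not overlap in either gene, and they moved in opposite directions. None of the 25 matched immediate early genes and none of the 31 matched integrated stress response genes held the motif in this window (0 of each).

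Immediate early genes were the list with the highest median among those compared with GFP in the plot of lists. Of 38 tested, 29 were higher in Target-AID than in GFP (76.3%, against 24.6% of all genes) and 0 lower. Their median log2 fold change was 0.99. Without Target-AID replicate 2, or with no filter, 1 member was called lower. ZFP36, a tested member, was kept by the low-count filter only through the Target-AID libraries, and that selection favours a higher value. DUSP1, the phosphatase that switches off stress kinases (chr5:172768090-172771195), was at 241, 205 and 223 CPM against 23.4, 22.3 and 28 (3.18 ± 0.09, adjusted p 5.99e-29). JUN, a subunit of AP-1, was at 561, 501 and 522 CPM against 156, 182 and 186 (1.59 ± 0.066, adjusted p 1.35e-22). FOS, its partner, was at 15.6, 17.3 and 15.7 CPM against 2.19, 2.07 and 2.32 (2.88 ± 0.21, adjusted p 1.51e-16). For all 3 genes the Target-AID libraries were above every GFP library. GADD45B, a stress sensor upstream of p38 and JNK kinases, rose by 2.80 ± 0.156. FOSL2, KLF2, DUSP6, FOSL1 and EGR1, named after their values were seen, rose by 2.25, 1.92, 1.72, 1.47 and 1.36. MYC (0.07, adjusted p 0.589), JUNB (0.34, adjusted p 0.121; called without Target-AID replicate 1) and IER3 (-0.09) missed the threshold. MCL1, also an antiapoptotic BCL2 relative, was called higher by 0.17, but not without Target-AID replicate 1 (0.13, adjusted p 0.0871).

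DUSP1 is also 1 of 2 immediate early genes, of 25 matched, with a cyclic AMP response element (TGACGTCA, which reads the same on both strands) in the promoter window; 540 of 27305 promoters hold it (1.98%). The other is JUND, which missed the threshold (0.15, adjusted p 0.212). CREB and ATF family dimers bind this element. In DUSP1 (chr5:172771196-172771445, minus strand, 250 bases before the start) the match, in capitals, begins 125 bases before the start.
DUSP1: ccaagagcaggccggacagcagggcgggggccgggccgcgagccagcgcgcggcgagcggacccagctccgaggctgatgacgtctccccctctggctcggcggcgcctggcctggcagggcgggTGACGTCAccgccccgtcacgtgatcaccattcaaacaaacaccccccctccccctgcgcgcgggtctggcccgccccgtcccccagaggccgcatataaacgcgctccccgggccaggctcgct

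The integrated stress response moved in part. ATF3, a transcription factor induced by ATF4 and counted with the immediate early genes too, was at 774, 683 and 800.2 CPM in Target-AID and 70.3, 73 and 63.6 in GFP (3.45 ± 0.076, adjusted p 1.62e-31), without overlap. Of 38 tested members 24 were higher and 6 lower (63.2% and 15.8%, against 24.6% and 21.8% of all genes), median 0.48. DDIT4, an inhibitor of mTORC1, was at 279, 238 and 251 CPM against 85.8, 81 and 93.3 (1.56 ± 0.068, adjusted p 6.8e-22). SESN2, a leucine sensor, was at 362, 285 and 298 CPM against 107, 115 and 106 (1.53 ± 0.076). Both were higher in every Target-AID library. PPP1R15A, a regulatory subunit of the eIF2α phosphatase that restores translation, rose by 1.34, and TRIB3, a pseudokinase that feeds back on ATF4, by 1.20. Among members for amino acid synthesis and transport ASNS (0.20), SLC7A5 (0.58) and SLC3A2 (0.97) rose, and PHGDH and SLC7A11 fell. ATF4 itself, which is controlled mainly in translation, missed the threshold (-0.09, adjusted p 0.19). DDIT3, encoding the factor CHOP, and GDF15, a stress hormone, went the other way and fell by 0.25 and 0.81 (adjusted p 0.0229 and 0.0247); both calls were lost without GFP replicate 2 and without Target-AID replicate 1 or 2. The other 4 lower members were PHGDH, SLC7A11 and the eIF2α kinases EIF2AK1 and EIF2AK4, and without Target-AID replicate 2 or GFP replicate 2 the lower members were 3 in place of 6, and with library totals alone 1.

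Of 20 tested tRNA synthetases, many of which are ATF4 targets, 6 were higher, led by CARS (0.47) and FARSB (0.32). Another 6 were lower, led by EPRS (-0.48) and WARS (-0.37). These shares (30% each) are near the 24.6% higher and 21.8% lower of all genes. Genes of the endoplasmic reticulum unfolded protein response were mostly lower, 13 of 23 against 2 higher (56.5% and 8.7%, against 21.8% and 24.6% of all genes). CANX, the membrane lectin chaperone calnexin, was at 1508, 1356 and 1316 CPM against 2134, 2110.00 and 2087 (-0.60 ± 0.06, adjusted p 1.04e-10), and PDIA3 and HSP90B1 fell by 0.45 and 0.36. XBP1, the factor spliced by IRE1, rose by 0.52 (adjusted p 2.64e-08). HSPA5, the central chaperone BiP, missed the threshold (-0.11, adjusted p 0.308).

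Among p53 targets 8 of 28 were higher and 5 lower (28.6% and 17.9%), shares near the 24.6% and 21.8% of all genes. TNFRSF10B, the death receptor DR5, was at 509, 438 and 452 CPM in Target-AID and 95.5, 114 and 108 in GFP (2.14 ± 0.086, adjusted p 5.71e-23), and every Target-AID library exceeded every GFP library. PLK3 rose by 2.13, GADD45A by 0.99 and AEN, a nuclease, by 0.92. CDKN1A, the p21 cell cycle inhibitor, missed the threshold (0.14, adjusted p 0.485), BAX, a pore-forming effector of apoptosis, fell by 0.38 and CCNG1, a cyclin, by 0.32. Without Target-AID replicate 1, GFP replicate 2 or GFP replicate 3, or with library totals alone, the lower members were 3.

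Of 16 tested NF-kB and cytokine genes 9 were higher in Target-AID than in GFP (56.25%, against 24.6% of all genes), 0 lower and 7 not called. NFKBIE, an inhibitor of NF-kB, was at 16.3, 16 and 16 CPM against 7.97, 6.39 and 8.17 (1.11 ± 0.14, adjusted p 1.08e-08). CXCL2, a neutrophil chemokine, was at 1.65, 1.94 and 2.11 CPM against 0.299, 0.658 and 0 (2.44 ± 0.62). IL11, an interleukin 6 family cytokine and 1 of the 9, was at 1.44, 1.84 and 0.868 CPM against 0, 0.282 and 0.110 (3.26 ± 0.75). Without the Target-AID libraries the low-count filter would have removed it, and that selection favours a higher value. Counts for these genes are few, and without GFP replicate 2 the log2 fold changes were 3.47 for CXCL2 and 4.42 for IL11. Of 24 tested interferon and nucleic acid sensing genes (39 in the table) 3 were higher and 5 lower. These shares (12.5% and 20.8%) stand against 24.6% and 21.8% of all genes. IFIT5 rose by 0.63 and DDX58, the RNA sensor RIG-I, by 0.93 (11.2, 11.3 and 10.5 CPM against 5.48, 6.21 and 5.63). IFI6, an interferon-induced gene, fell by 0.90. The third higher member, PARP14, was at 1.65, 1.26 and 2.23 CPM against 0, 0.0940 and 0.110, and it too was kept by Target-AID alone.

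Of 24 genes linked to NRF2 and oxidative stress 13 were lower (54.2%, against 21.8% of all genes) and 6 higher (25%, against 24.6%). The small MAF partners of NRF2 rose, MAFF from 1.10, 2.82 and 1.66 CPM in GFP to 7.30, 7.37 and 7.68 in Target-AID (1.98 ± 0.25) and MAFK by 1.08. HMOX1, heme oxygenase, was at 118, 108 and 111 CPM against 71.5, 49.5 and 51.5 (0.97 ± 0.092, adjusted p 2.5e-11), and ABCC2, an export pump, at 9.15, 8.44 and 9.42 against 1.30, 1.79 and 0.993 (2.69 ± 0.27). In these genes all Target-AID libraries were the higher ones. TXN, thioredoxin, fell by 0.60, and NQO1, a classical NRF2 target named after its value was seen, by 0.85 (adjusted p 5.11e-05). Of 6 tested metallothionein and zinc genes 1 was higher (16.7%), MTF1, the zinc-sensing factor (0.62), and 1 lower (16.7%), MT2A (-0.57). The higher members were 2 without Target-AID replicate 2 or 3 and with library totals alone. The lower members were 2 without GFP replicate 1 or Target-AID replicate 3, with the replicate block, with RLE scaling, with no filter and with the 6 libraries alone.

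**Figure D3:**
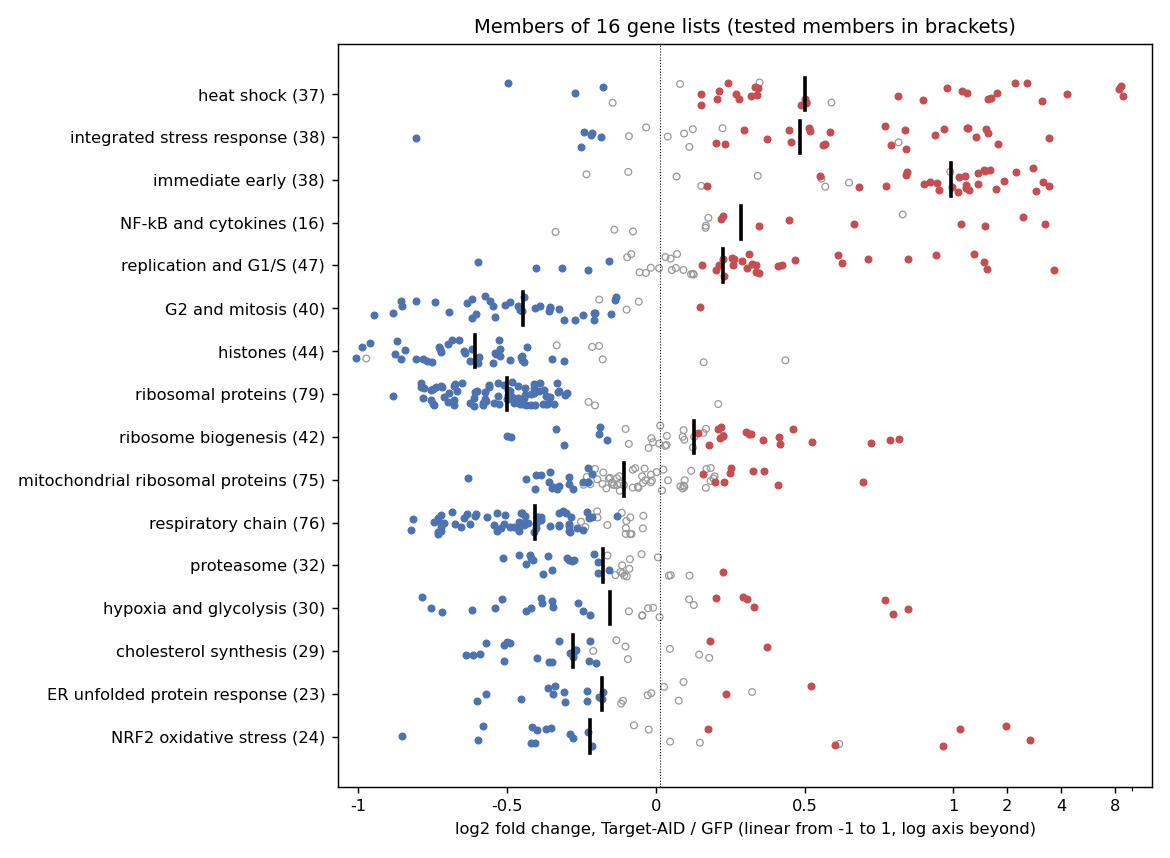
Each point is a tested member of 1 of 16 gene lists at its log2 fold change, Target-AID with HEKsite2 over GFP (linear from -1 to 1, log axis beyond). Filled red and blue points were called higher and lower, open points were not called, the black bar is the list's median and the dotted line the median of all genes (0.02). Immediate early genes have the highest median (0.99) and histones the lowest (-0.61) of the lists drawn.

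The cell cycle genes divided by phase. Of 47 tested genes of replication and the G1/S step 27 were higher and 5 lower (3 with library totals alone), median 0.23. Of 40 genes of G2 and mitosis 1 was higher and 36 lower, median -0.45. All genes gave 24.6% higher and 21.8% lower, G1/S genes 57.4% and 10.6%, and G2 and mitosis genes 2.5% and 90%. CDC45, part of the replicative helicase (chr22:19479459-19520612), stood apart from its list at 1439, 1177 and 1194 CPM in Target-AID against 104, 100.05 and 102 in GFP (3.64 ± 0.079, adjusted p 1.62e-31). Its partners in the same helicase changed far less: MCM5 rose by 0.71, MCM3 by 0.32, and MCM2 (0.09) and MCM4 (-0.08) missed the threshold. E2F1, the factor that switches on S phase genes, was at 128, 122 and 128 CPM against 44.6, 41.8 and 42.9 (1.55 ± 0.061, adjusted p 1.05e-23). Its relative E2F2 rose by 1.48, cyclin D1 (CCND1) by 1.31 and the CDK phosphatase CDC25A by 0.85. RPA1 and RPA3, subunits of the protein that coats single-stranded DNA, went the other way and fell by 0.40 and 0.60.

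KIF20A, a kinesin of the midzone and cytokinesis, was at 73.9, 74 and 77.8 CPM in Target-AID and 155, 142 and 138 in GFP (-0.95 ± 0.056, adjusted p 1.52e-17). TOP2A, the topoisomerase that separates chromosomes, was at 663, 668 and 637 CPM against 1145, 1227 and 1183 (-0.85 ± 0.063, adjusted p 2.26e-14). In both genes no Target-AID library reached the lowest GFP library. TTK, a kinase of the spindle checkpoint, fell by 0.81, DLGAP5, a spindle protein, by 0.86 and HMMR by 0.88. CDC25B, BIRC5 and PRC1 missed the threshold, and CKS2 was the 1 member called higher (0.15), a call lost without GFP replicate 1 or 2 or without Target-AID replicate 2 or 3. Replication-dependent histone genes, which are transcribed in S phase, were lower too. Of 65 listed 44 could be tested, and 37 were lower (84.1%, against 21.8% of all genes) and 0 higher, median -0.61. HIST3H2BB was at 96.1, 92.4 and 105 CPM against 186, 194 and 219 (-1.03 ± 0.1, adjusted p 8.71e-11) and HIST1H2BO at 179.9, 164 and 198 against 314, 349.9 and 389 (-0.96 ± 0.091). Histone genes are near copies of each other and reads between them are uncertain. In bulk libraries fewer cells in a phase and less RNA per cell cannot be told apart.

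Ribosomal protein genes fell almost without exception. Of 79 tested 76 were lower (96.2%, against 21.8% of all genes) and 0 higher (1 with library totals alone), median -0.50. RPS3A, RPL9 and RPL36A missed the threshold. RPL23A, at the exit of the peptide tunnel, was at 527, 518 and 563 CPM in Target-AID against 952, 889 and 934 in GFP (-0.79 ± 0.063, adjusted p 1.71e-13). RPL11, which also binds MDM2, was at 544, 539 and 522 CPM against 857, 865 and 875 (-0.69 ± 0.054, adjusted p 8.86e-14). The groups did not overlap in either gene. RPL23, RPS25 and RPL7 fell by 0.88, 0.79 and 0.78. Of 42 tested genes for making ribosomes 17 were higher (40.5%, against 24.6% of all genes) and 7 lower (16.7%, against 21.8%). With library totals alone 4 were lower. NOP58, a core protein of box C/D snoRNPs, was at 283, 298 and 269 CPM against 174, 182 and 157 (0.72 ± 0.063, adjusted p 2.18e-12), and RRP12 and BYSL, factors of the small subunit, rose by 0.82 and 0.79. NHP2, of the box H/ACA snoRNPs, fell by 0.50. Of 75 tested mitochondrial ribosomal proteins 9 were higher and 19 lower (12% and 25.3%, against 24.6% and 21.8% of all genes). MRPL18 rose by 0.69 (edgeR adjusted p 3.18e-13) and MRPS21 fell by 0.63. Without GFP replicate 2 or 3 or Target-AID replicate 3 the higher members were 5 in place of 9, and with library totals alone 16.

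The nuclear-encoded respiratory chain fell as well. Of 76 tested subunits 62 were lower (81.6%, against 21.8% of all genes) and 0 higher, median -0.41. The counts hold no mitochondrially encoded genes. UQCRH, the hinge protein of complex III, was at 171, 174 and 167 CPM in Target-AID against 302, 300.1 and 304 in GFP (-0.82 ± 0.065, adjusted p 1.49e-13), with no overlap. NDUFB3 and NDUFA1 of complex I fell by 0.82 and 0.73, COX7B of complex IV by 0.73 and ATP5I of the ATP synthase by 0.71. Subunits that missed the threshold included NDUFS1 (-0.08), NDUFS3 (-0.04) and CYC1 (-0.04). Of 32 proteasome genes 17 were lower (53.1%, against 21.8% of all genes) and 1 higher (PSMD7, 0.23). With library totals alone 3 were higher. PSMD2 of the regulatory particle fell by 0.51 and PSMA4 of the core by 0.46.

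Of 30 genes of glycolysis and hypoxia 15 were lower and 7 higher (50% and 23.3%, against 21.8% and 24.6% of all genes). GAPDH was at 1538, 1444 and 1464 CPM against 2505, 2459 and 2532 (-0.75 ± 0.065, adjusted p 1.58e-12) and LDHA, which makes lactate, at 545, 516 and 543 against 861, 859.7 and 917 (-0.72 ± 0.07, adjusted p 4.46e-11). Both were lower in every Target-AID library, as was GPI (-0.54). The hypoxia-inducible genes VEGFA and NDRG1 rose, VEGFA from 31.1, 35.6 and 30.1 CPM to 53.9, 58.8 and 52.8 (0.77 ± 0.07) and NDRG1 by 0.80. Of 29 cholesterol and lipid synthesis genes 20 were lower and 2 higher (69% and 6.9%, against 21.8% and 24.6% of all genes). With library totals alone 13 were lower and 4 higher, and without GFP replicate 1 or with no filter 1 was higher. MSMO1, a methyl sterol oxidase of the pathway, was at 87.5, 82.1 and 86 CPM against 127, 135 and 129 (-0.61 ± 0.06, adjusted p 3.63e-11), and SQLE and SCD fell by 0.51 and 0.49.

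Genes that handle uracil in DNA changed little as a group. Of 26 uracil repair, base excision and mismatch repair genes 4 were higher and 2 lower in Target-AID, fewer than the 24.6% and 21.8% of all genes, and the same 26 gave 13 higher and 1 lower with library totals alone. UNG, the main uracil glycosylase, was at 172, 147 and 159 CPM in Target-AID and 108, 115 and 110.03 in GFP (0.52 ± 0.074, adjusted p 1.94e-07), and every Target-AID library was above every GFP library. EXO1, the exonuclease of mismatch repair, was at 305, 278 and 268 CPM against 152, 159 and 160.2 (0.85 ± 0.065, adjusted p 5.59e-14). PARP1, which signals DNA breaks, was at 943, 932 and 849 CPM against 1402, 1392 and 1315 (-0.59 ± 0.066, adjusted p 1.32e-09), and PARP2 rose by 0.36. NEIL1, a glycosylase for oxidised bases, was at 4.42, 8.15 and 5.70 CPM against 3.99, 3.86 and 2.98 (0.76 ± 0.22, adjusted p 0.00432), and without Target-AID replicate 2 it was not called (0.47, adjusted p 0.118). LIG3, a ligase, fell by 0.20, a call lost with library totals alone (-0.10, adjusted p 0.192). The other uracil glycosylases did not pass the test: SMUG1 -0.20, TDG 0.05 and MBD4 -0.15. The same holds for APEX1 (-0.06), POLB (0.00), XRCC1 (0.13), DUT (0.00), MSH3 (-0.01), MSH6 (0.06), PMS1 (-0.10) and PMS2 (0.18, adjusted p 0.0509). It holds as well for NTHL1, OGG1, MUTYH, NEIL2, NEIL3 and APEX2, which lay between 0.04 and 0.26. Calls appeared for OGG1 without Target-AID replicate 1 or 2, for SMUG1 without Target-AID replicate 3, for MBD4 without GFP replicate 2 and for PMS2 without GFP replicate 1 or Target-AID replicate 2.

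The cell's own deaminases gave no common direction. Of 20 listed, 10 were high enough to test, 4 were higher and 2 lower. These shares (40% and 20%) stand against 24.6% and 21.8% of all genes. ADAR, the main A-to-I editor of RNA, was at 350.4, 349 and 313 CPM in Target-AID against 383, 407 and 412 in GFP (-0.25 ± 0.056, adjusted p 0.000361). ADARB1 was at 21.1, 23.9 and 21.2 CPM against 16.6, 17.9 and 15.6 (0.40 ± 0.095, adjusted p 0.000584). APOBEC3C, a cytidine deaminase that restricts retroelements, was at 9.05, 8.44 and 9.54 CPM against 10.8, 13.7 and 13.6 (-0.50 ± 0.13, adjusted p 0.00167). ADAR and ADARB1 thus went opposite ways. ADAT2, the tRNA adenosine deaminase, rose by 0.40, CDADC1 by 0.47, and ADAT3, the partner of ADAT2, by 0.63, a call lost without Target-AID replicate 1 (0.52, adjusted p 0.0621). APOBEC3B (-0.70, adjusted p 0.0617; called without GFP replicate 3), APOBEC3D (-0.80), APOBEC3F (0.00) and ADAT1 (0.00) missed the threshold. APOBEC1 had 0 in all libraries, and APOBEC2, APOBEC3A, APOBEC3G, APOBEC3H, APOBEC4, A1CF, ADARB2 and CDA had between 0 and 18 counts per group.

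Set against nCas9 with the same guide, the control that carries the nickase without the deaminase, Target-AID differed in 5932 of 14613 genes (40.6%), 3138 higher (21.5%) and 2794 lower (19.1%). At least 2-fold were 416 of the higher (2.85%) and 162 of the lower (1.11%). The comparison shares its Target-AID libraries with that against GFP, so the values stand side by side and are not independent. Heat shock genes were 28 higher and 2 lower of 37 (median 0.63), with HSPA6 at 16.1, 15.1 and 17.6 CPM in nCas9 (6.52, adjusted p 7.21e-33), DNAJB1 at 197, 189.8 and 205 (3.70) and HSPA1B at 287, 282 and 277 (3.39). In its 3 libraries nCas9 lay above GFP for HSPA6 and below it for DNAJB1 and HSPA1B; that pair of groups was not tested here. Integrated stress response genes were 26 higher and 6 lower of 38, and CDC45 and TNFRSF10B differed from nCas9 by 3.05 and 1.84. Ribosomal protein genes were 63 lower and 0 higher of 79 (median -0.33) and respiratory chain genes 60 lower and 0 higher of 76 (-0.39).

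Several lists had medians nearer 0 against nCas9 than against GFP. Immediate early genes were 18 higher and 3 lower of 38 against nCas9, with a median of 0.43 where it was 0.99 against GFP; FOS was at 14.9, 15.7 and 18.5 CPM in nCas9 (-0.01, adjusted p 0.947), much as in Target-AID. Genes of G2 and mitosis were 3 higher and 10 lower of 40 (median -0.05, against -0.45), and TOP2A did not pass the test (-0.14, adjusted p 0.0669). Genes of replication and G1/S were 14 higher and 11 lower of 47 (median -0.04), and histones 1 higher and 24 lower of 44 (median -0.32). Uracil and mismatch repair genes gave more calls against nCas9 than against GFP, 8 higher and 7 lower of 26 in place of 4 and 2, with a median of 0.00. UNG differed from nCas9 by 0.19 (adjusted p 0.0392) and EXO1 by 0.30 (adjusted p 0.000229). TDG, which missed the threshold against GFP, was higher by 0.44 (adjusted p 5.66e-07), and XRCC1 differed by -0.52 (adjusted p 1.41e-06). ADAR missed the threshold (0.02, adjusted p 0.831).

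**Figure D4:**
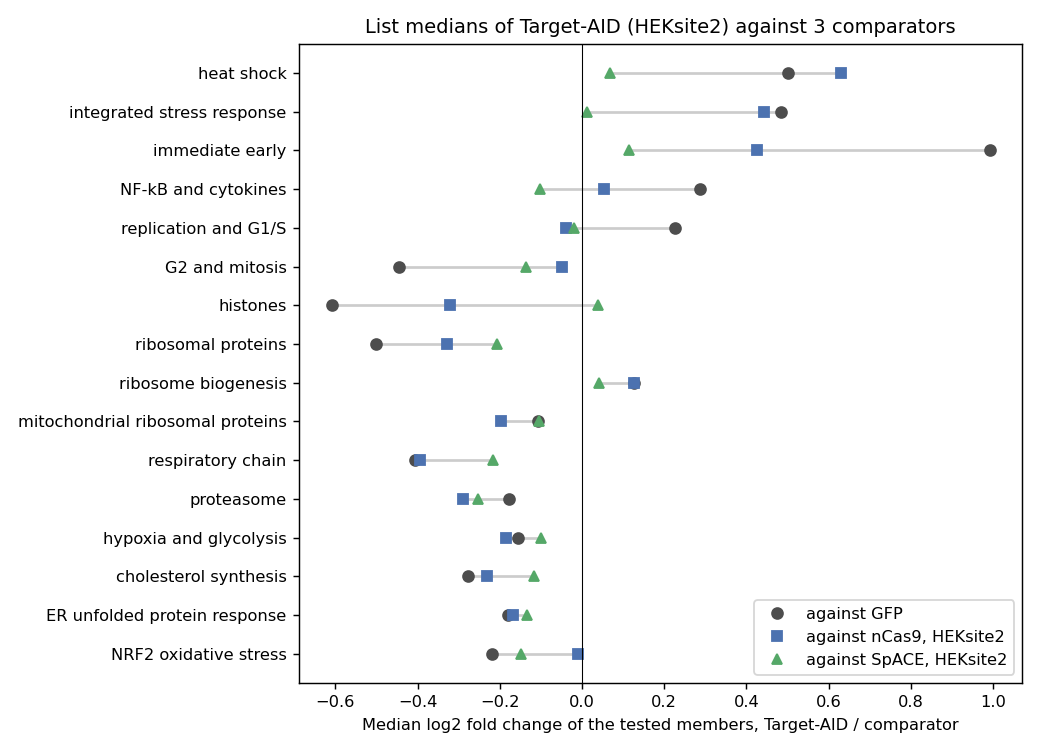
Median log2 fold change of the tested members of 16 gene lists, Target-AID with HEKsite2 over each comparator: GFP (circles), nCas9 with HEKsite2 (squares) and SpACE with HEKsite2 (triangles). All 3 share the Target-AID libraries; heat shock has the largest median against nCas9 (0.63), and the median of G2 and mitosis genes goes from -0.45 against GFP to -0.05 against nCas9.

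The other guide gave similar values, with some genes apart. Between Target-AID with RNF2 and Target-AID with HEKsite2 edgeR called 0 of 14613 genes (0.0%), DESeq2 called 0, and 572 genes had an unadjusted p under 0.05 (3.91%). The smallest adjusted p, 0.132, included CRYAB (-0.97). HSPA6 was at 1393, 1219 and 1031 CPM with RNF2, ATF3 at 703, 623 and 637, CDC45 at 1389, 1102 and 995 and KIF20A at 68.1, 65.9 and 66.2. In none of these 4 genes did an RNF2 library overlap with the GFP libraries. Between the guides the libraries did not overlap for HSPA6 and KIF20A, lower with RNF2 (unadjusted edgeR p 0.0032 and 0.0061). Those of ATF3 and CDC45 overlapped. Replicate 3 with RNF2 stood off from replicates 1 and 2 (chi-square per degree of freedom 20.7 and 12.3). Replicates 1 and 2 with RNF2 differed by 3.01. A p that misses the threshold does not show that the guides act alike.

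SpACE also edits cytosines, and its levels of HSPA6, DNAJB1 and ATF3 lay between those of GFP and Target-AID. Target-AID differed from SpACE in 2706 genes (18.5%), 1507 higher (10.3%) and 1199 lower (8.21%); without Target-AID replicate 2 the lower calls were 749. At least 2-fold were 289 of the higher (1.98%) and 45 of the lower (0.308%). HSPA6 was at 205, 133 and 119 CPM in SpACE, so Target-AID was higher by 3.30 (adjusted p 4.49e-26), and DNAJB1 was at 910.1, 808 and 777 (1.62). Of the 37 heat shock genes 11 were higher in Target-AID than in SpACE and 1 lower. ATF3 was at 453, 396 and 381 CPM in SpACE (0.88, adjusted p 5.43e-13), and PPP1R15A and TRIB3 did not pass the test (-0.01 and -0.11). CDC45 was at 154, 146 and 145 CPM in SpACE and TNFRSF10B at 109.7, 115 and 122, so Target-AID was higher by 3.10 and 2.01, nearly as much as over GFP. FOS was higher there than in Target-AID (-0.60, adjusted p 0.000309). Ribosomal protein genes were 39 lower and 0 higher of 79, proteasome genes 24 lower and 0 higher of 32, and histones 4 higher and 0 lower of 44.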

How the data were processed

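RNA-seq was done on sorted HEK293T cells with a stranded total RNA kit, per the labels' protocols. The deposited table holds raw read counts per gene symbol, made by the authors, with 26475 genes (2603 without a count) and 33 libraries in 11 groups of 3. The submitters' processing notes name STAR, GATK 3.8.1, Picard 2.7 and GRCh38 with no roles; as to the counter, strand mode and gene models, these were not given in the sources used here, so reads of overlapping and near-identical genes may be split between them.

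Genes were kept by filterByExpr (14613), scaled by TMM and fitted over all 33 libraries with 1 mean per group (22 residual degrees of freedom). Each pair of groups was tested by edgeR 4.0.16 (R 4.3.3; glmQLFTest, quasi-likelihood, two-sided) with Benjamini-Hochberg adjustment over all genes tested, called at adjusted p under 0.05. Groups at 0 counts were set at 3 counts for a bound, and 1 to 3 counts were given as a ratio with a 95% exact interval. Named genes are the 10 largest rises and 10 largest falls among called genes with a mean of at least 2 CPM, an ordinary symbol and groups that do not overlap, then up to 5 called members per gene list by smallest p, and all members with counts of the uracil repair, deaminase, and growth hormone and globin lists. Members named beyond this rule, mostly those that moved against their list or missed the threshold, were picked with their values in view. Some items that the rule names are not reported here. The comparisons, lists and rule were chosen with earlier results of these data known. Counts and medians over a list describe it and are no test of it.

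Alternatives were RLE scaling, library totals alone, no filter, DESeq2 1.42.0, a replicate block, a fit of the 6 libraries alone, the fit without 69 Target-AID-specific genes, and each library left out in turn. On simulated counts for Target-AID with HEKsite2 against GFP (14613 genes, 50 changed by each size) the fit called 36, 64, 92 and 98% of genes changed 1.25, 1.5, 2 and 4-fold, and 5 of 14413 unchanged genes. The changed genes were drawn only from those above a minimum mean count, and the noise from the fitted spread. Far fewer genes were changed than were called in the data, so these rates need not hold there or for sparse genes. Replicate libraries differed by more than sampling noise (chi-square per degree of freedom at least 1.40), so none was merged. Gene positions are from GENCODE 29 and promoter sequences from RefSeq GRCh38.p14. Bases edited in RNA were not analysed here.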

Additional observations from a re-analysis of the deposited data

How the results depend on the processing

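For Target-AID against GFP the total of called genes stayed between 6096 and 6964 under every alternative run: 3545 higher and 3241 lower with RLE scaling, 3374 and 3409 with no filter, 3363 and 3411 with the 6 libraries alone, and 3262 and 2960 with DESeq2. Leaving out each library in turn gave 6096 to 6311. The totals against nCas9 (4933 to 6109) and against SpACE (1896 to 2963) also kept within 1.5 times of the value reported. Between the guides, where 0 genes were called, 8 were called with no filter on low counts (4 higher and 4 lower), and 0 to 2 when single libraries were left out (1 without Target-AID with HEKsite2 replicate 1, 2 without Target-AID with RNF2 replicate 2).

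With the replicate block Target-AID against GFP gave 6950 calls. Deviations of same-numbered libraries correlated at 0.03, 0.12 and 0.04, and each library correlated best with its own number. Whether a shared number marks a shared batch cannot be told from values this low. Of 186 named genes 161 were called, and 155 kept call and direction under all alternatives. None of the 161 reversed, while 8 genes that were not called changed sign under at least 1 alternative (NTHL1, APEX1, POLB, DUT, MSH3, PMS1, APOBEC3F and ADAT1). Calls of NEIL1, MCL1, HRK, LIG3, ADAT3 and OR2B3 were lost under at least 1 alternative; the cause was not tested. Depth limits the sparse genes, such as IL11 and the untested deaminases.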

Other observations

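Several RNA processing lists gave shares of calls not far from those of all genes in Target-AID against GFP (24.6% higher and 21.8% lower). Among 22 SR splicing factors and their kinases 8 were higher and 4 lower (36.4% and 18.2%; 2 lower with library totals alone). The CLK kinases, which phosphorylate SR proteins, were led by CLK1, at 89.3, 99.3 and 87 CPM in Target-AID and 46, 39.7 and 35.4 in GFP (1.19 ± 0.099, adjusted p 5.66e-13 by edgeR), and CLK4, at 37.8, 38.3 and 31.7 against 14.6, 16.7 and 13.8 (1.26 ± 0.11); CLK3 rose by 0.55 and CLK2 missed the threshold (0.03). SRSF9 fell by 0.51. Of 21 snoRNA host genes, the introns of which carry small nucleolar RNAs, 8 were higher and 8 lower (38.1% each, median -0.02). SNHG15 was at 100.3, 107 and 113 CPM against 37.9, 39.5 and 34.5 (1.51 ± 0.086, adjusted p 3.2e-18) and SNHG17 at 46.4, 45.1 and 50.6 against 20.9, 15.7 and 16.1 (1.42 ± 0.1). In nCas9 SNHG15 was at 104, 106 and 104 CPM, and the difference from it missed the threshold (0.02, adjusted p 0.841). Without Target-AID replicate 1 or with library totals alone the lower hosts were 4, and without GFP replicate 1 or 2 they were 5. Of 20 genes of nonsense-mediated decay and its targets 6 were higher, among them SMG5 (0.63), SMG9 (0.66) and GAS5 (0.66), and 5 lower (30% and 25%). The lower were 3 without GFP replicate 1, and with library totals alone 10 were higher and 3 lower.

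YAP and TEAD targets, which respond to cell shape and contact, were 8 higher and 4 lower of 18 (44.4% and 22.2%; 2 lower without GFP replicate 2 or with library totals alone). ANKRD1 was at 34.2, 34.9 and 33.1 CPM in Target-AID, 12.6, 16.3 and 15.8 in GFP and 1.58, 0.561 and 1.76 in nCas9, so the difference was 1.20 from GFP and 4.66 from nCas9 (adjusted p 5.13e-11 and 9.79e-23). AMOTL2 rose by 1.20 and CYR61 by 1.37, while YAP1 itself fell by 0.43. In the BCL2 family 5 of 16 genes were higher (31.2%) and 1 lower, and with library totals alone 10 were higher. BAK1, an effector of apoptosis, rose by 0.52 and BIK, a BH3-only protein, by 0.84 (2.26, 3.59 and 3.59 CPM against 1.99, 1.88 and 1.32). HRK was called at 0.45, but not without GFP replicate 3 (0.32, adjusted p 0.113) or Target-AID replicate 1 (0.38, adjusted p 0.0795). Autophagy and lysosome genes were 9 higher and 8 lower of 30 (30% and 26.7%), shares near those of all genes, and 15 were higher with library totals alone. TFEB, which drives lysosomal genes, was at 10.1, 8.92 and 11.7 CPM against 5.78, 5.08 and 4.75 (0.96 ± 0.16, adjusted p 4.01e-06), and the lysosomal membrane genes LAMP1 and LAMP2 fell by 0.47 and 0.52.

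Among liver markers APOB and SERPINA1 could be tested because of the Target-AID libraries alone. SERPINA1 had 51 counts in Target-AID with HEKsite2 and 1 in GFP, and APOB 31 and 0. All 14 markers summed to 3.8 to 4.65 CPM in Target-AID and 0.441 to 1.39 in GFP, and APOA1, APOH, FGA, FGB and AHSG were at 0 counts in Target-AID. Leukocyte markers summed to 2.42 to 3.10 CPM and 2.07 to 2.76.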
